A study of Mus musculus with 8 samples.

Results

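The MHC class II genes of the mouse retina were examined through 7 genes: H2-Aa, H2-Ab1 and H2-Eb1, which encode chains of the classical class II molecules, Cd74, which encodes the invariant chain, H2-DMa and H2-DMb1, which encode the peptide exchange factor H2-DM, and Ciita, the transactivator of the family. They were taken by symbol from a count table of 25477 genes, and all 7 had a row. The comparison set 4 retina libraries from mice of a PD-L1 knockout line against 4 retina libraries labelled control. The titles of the control samples carry WT, for wild type. All 8 samples were named for choroidal neovascularization (CNV), the growth of vessels from the choroid towards the retina. Both groups thus carried the lesion, so the comparison is between genotypes with CNV present and does not show the effect of CNV itself. Any other difference between the groups cannot be told apart from that of genotype. PD-L1, encoded by Cd274, is a ligand that restrains T cells through the receptor PD-1, and the study asked what its loss does to the formation of CNV. The labels gave the tissue and the genotype but no strain, age, sex, method of lesion or time after it, and they did not say whether each library came from 1 animal or from a pool. The p-values therefore measure the spread between these libraries, which may be partly technical.

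Class II molecules are pairs of an alpha and a beta chain that show peptides from endocytosed proteins to CD4 T cells. The invariant chain occupies the binding groove during transport, endosomal proteases such as cathepsin S trim it to a short fragment, and H2-DM exchanges that fragment for peptides. Transcription of the genes of the class II chains, the invariant chain and H2-DM depends on CIITA, which does not bind DNA itself. CIITA is recruited by factors of the RFX, NF-Y and CREB families assembled on the conserved X and Y boxes of class II promoters. In the uninjured retina microglia carry little class II, whereas dendritic cells, macrophages and activated microglia can carry it.

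The X and Y boxes are shown for 4 members with an entry in the RefSeq promoter table of GRCm38.p6, the patch release of the build mm10 to which the reads were aligned. Each sequence below holds the 250 bases upstream of an annotated start, read 5′ to 3′ on the strand of the gene, and the capitals mark the letters searched for, AACNNATG for the X box and TGATTGG for the Y box. H2-Aa lies on the minus strand (chr17:34287824-34288073), and H2-Eb1 (chr17:34305617-34305866), H2-DMb1 (chr17:34152941-34153190) and H2-DMa (chr17:34122582-34122831) lie on the plus strand.
H2-Aa: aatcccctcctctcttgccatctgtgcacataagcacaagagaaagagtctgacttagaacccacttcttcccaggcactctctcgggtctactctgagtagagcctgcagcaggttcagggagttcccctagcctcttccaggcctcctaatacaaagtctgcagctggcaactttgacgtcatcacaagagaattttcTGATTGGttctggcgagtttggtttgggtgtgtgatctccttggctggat
H2-Eb1: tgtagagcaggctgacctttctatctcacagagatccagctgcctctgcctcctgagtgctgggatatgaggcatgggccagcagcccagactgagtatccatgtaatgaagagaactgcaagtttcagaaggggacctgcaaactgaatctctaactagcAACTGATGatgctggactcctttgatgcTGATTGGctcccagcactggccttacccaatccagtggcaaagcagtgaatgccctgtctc
H2-DMb1: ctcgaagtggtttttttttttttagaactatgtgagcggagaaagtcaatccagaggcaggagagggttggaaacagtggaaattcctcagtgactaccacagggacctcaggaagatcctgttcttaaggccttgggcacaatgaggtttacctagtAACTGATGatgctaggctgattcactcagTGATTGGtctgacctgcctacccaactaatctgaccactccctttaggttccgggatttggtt
H2-DMa: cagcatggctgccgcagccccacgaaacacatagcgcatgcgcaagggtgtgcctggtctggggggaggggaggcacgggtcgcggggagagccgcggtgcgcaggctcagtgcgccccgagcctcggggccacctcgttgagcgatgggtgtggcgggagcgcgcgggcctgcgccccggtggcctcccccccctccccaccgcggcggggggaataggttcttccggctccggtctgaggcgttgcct
H2-Eb1 and H2-DMb1 held both motifs, with the X box letters starting at -89 and -92 from the start site and the Y box letters at -61 and -63. H2-Aa held the Y box letters at -50 without the X box letters as spelled here. H2-DMa held neither in this window or in that of another annotated start. Both of its windows lie inside the span of the gene, which begins at 34119693. The sequence upstream of that base was not searched, so a lack of the boxes in the promoter of H2-DMa is not shown. The motifs were searched on both strands and could share 2 bases as spelled, though they did not overlap in the sequences shown. Their letters were chosen after these promoters had been seen. H2-Ab1 and Ciita had no entry in the table. Cd74 was left out of this search, and its promoter is not reported here.

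Of the 8 class II genes searched, including H2-Oa, H2-Ob, H2-Eb2 and H2-DMb2, the Y box letters were present in 7 and the X box letters in 5. Among all 32851 promoter windows of the same length, 7.23% held the Y box letters and 7.71% held the X box letters. The ordered pair, X box then Y box on the strand of the gene within 30 bases, was present in 12 windows, or 0.0365%. Of these 12 windows 6 lay on chromosome 17 between 34144999 and 34398819, and 5 of those 6 belonged to class II genes (H2-DMb2, H2-DMb1, H2-Ob, H2-Eb1 and H2-Eb2). The pair was not confined to class II genes. Gm34733, Gm34826, Gm35174, Gm52266 and Gm52260 held it in a cluster on chromosome 16 between 89226561 and 89264952, and G3bp2 on chromosome 5 held it too. The gap between the boxes was 18 bases in H2-Ob, 20 in H2-Eb1 and H2-Eb2, and 21 in H2-DMb1 and H2-DMb2. A match of letters is a description of the sequence and was not set against any measurement of binding.

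**Figure D1:**
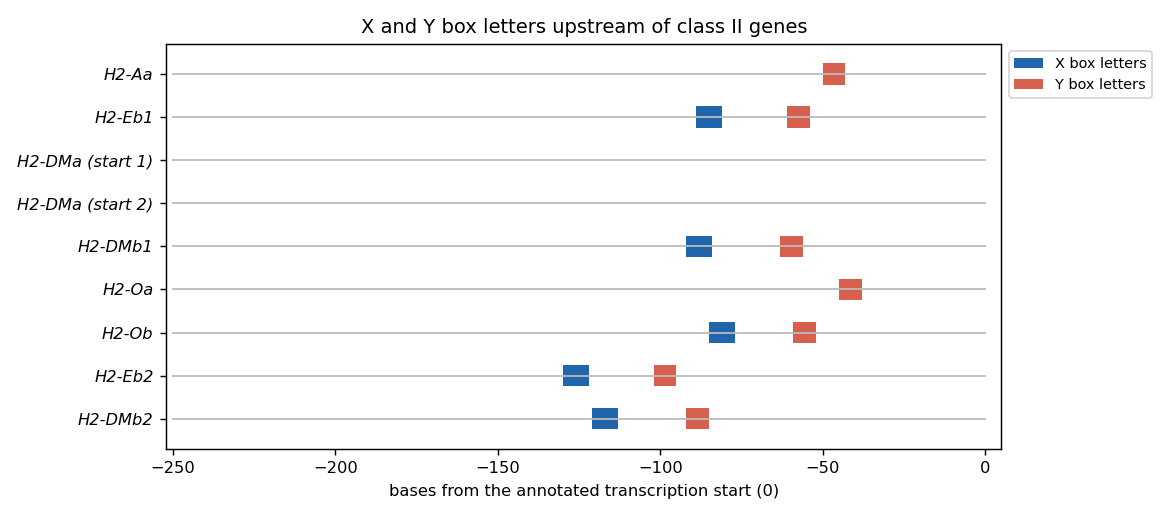
Positions of the X box letters (blue) and the Y box letters (red) in the 250 bases upstream of annotated starts of 8 class II genes, with the start site at 0 on the horizontal axis. In the 5 genes with both motifs the X box lay upstream of the Y box with a gap of 18 to 21 bases.

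The libraries held 34065854 to 36438248 counts in the knockout group and 31743404 to 34054268 in the control group, so that 1 count was worth 0.028 to 0.0314 CPM (read counts relative to the library size, scaled to the library size with edgeR's TMM factors). Cd274 was at 0.335 ± 0.0758 CPM in knockout libraries and 4.48 ± 0.544 CPM in control libraries (SD, n = 4 each), as the labels require. The 7 rod photoreceptor genes together reached 36501 to 53454 CPM in knockout libraries and 36892 to 48421 CPM in control libraries, so the tissue was retina by its markers. Lens genes summed to 2783 CPM in knockout 3 and to 6681 and 1898 CPM in controls 2 and 3, against 4.16 to 49.7 CPM in the other 5 libraries. No pair of libraries of the same group agreed within sampling noise.

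Of the class II chains, the alpha chain gene H2-Aa had 3.65, 3.30, 2.86 and 2.80 CPM in knockout libraries 1 to 4, against 5.64, 2.64, 2.74 and 2.04 CPM in control libraries 1 to 4. The beta chain gene H2-Ab1, which pairs with it, had 4.66, 2.35, 3.75 and 3.63 CPM in knockout libraries and 6.96, 3.80, 2.86 and 2.22 CPM in control libraries. H2-Eb1, the beta chain of the second class II molecule, had 2.49, 3.42, 2.58 and 2.63 CPM in knockout libraries and 5.61, 2.33, 1.97 and 1.78 CPM in control libraries. In all 3 genes control 1 was the highest library and control 4 the lowest, and every knockout library lay between them. The SD was larger in control than in knockout libraries in each of the 3 genes. Means were 3.15 ± 0.399 CPM in knockout and 3.27 ± 1.61 CPM in control libraries for H2-Aa (SD, n = 4 each). They were 3.60 ± 0.953 CPM in knockout and 3.96 ± 2.10 CPM in control libraries for H2-Ab1, and 2.78 ± 0.431 CPM in knockout and 2.92 ± 1.81 CPM in control libraries for H2-Eb1. None of these differences passed the threshold of edgeR's quasi-likelihood test. The log2 fold change, knockout over control, was -0.05 for H2-Aa (SE 0.29, 95% interval -0.69 to 0.58, edgeR adjusted p = 0.941). It was -0.14 for H2-Ab1 (SE 0.33, interval -0.85 to 0.57, edgeR adjusted p = 0.842) and -0.07 for H2-Eb1 (SE 0.34, interval -0.81 to 0.67, edgeR adjusted p = 0.927). Without control 1 the 3 estimates were 0.35, 0.28 and 0.46, with edgeR adjusted p-values of 0.487, 0.649 and 0.398. The sign also turned without knockout 4 in H2-Aa and without knockout 2 in H2-Ab1, where both estimates were near 0. H2-Aa lies on chromosome 17 from 34282744 to 34287823, H2-Ab1 from 34263227 to 34269418 and H2-Eb1 from 34305867 to 34316674 (mm10, RefSeq annotation).

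**Figure D2:**
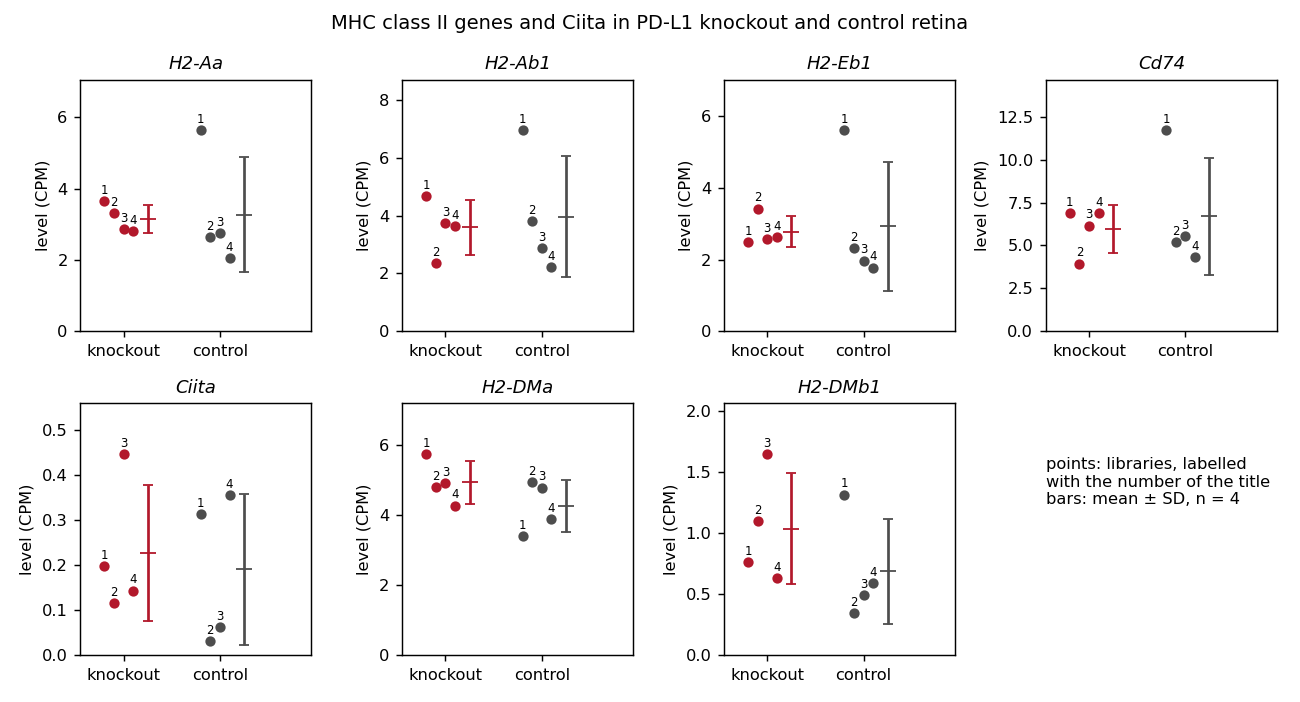
Level in CPM of the 7 genes in each library, knockout left and control right, with points for libraries labelled by the number in their title and bars for mean ± SD (n = 4). In H2-Aa, H2-Ab1, H2-Eb1 and Cd74 control 1 stood above all other libraries, and in no gene did the groups separate.

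Cd74, whose product escorts the chains to the endosome, was the most abundant member, with 6.87, 3.94, 6.16 and 6.89 CPM in knockout libraries and 11.7, 5.18, 5.55 and 4.32 CPM in control libraries. Control 1 was again the highest, and the lowest library was knockout 2. The means were 5.97 ± 1.39 CPM in knockout libraries and 6.69 ± 3.39 CPM in control libraries (SD, n = 4 each). The log2 fold change was -0.17 (SE 0.29, 95% interval -0.80 to 0.47, edgeR adjusted p = 0.778), and without control 1 it was 0.25 (edgeR adjusted p = 0.602). The gene lies on chromosome 18 from 60803849 to 60812652.

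In the peptide exchange genes the libraries stood in another order. H2-DMa, the alpha chain of H2-DM, had 5.74, 4.78, 4.90 and 4.26 CPM in knockout libraries and 3.39, 4.93, 4.77 and 3.88 CPM in control libraries. Here control 1 was the lowest of all 8 libraries, at 0.748 of the mean of the other controls. H2-DMb1, its beta chain partner, had 0.763, 1.10, 1.65 and 0.629 CPM in knockout libraries and 1.32, 0.346, 0.493 and 0.592 CPM in control libraries. These values rested on 22 to 59 reads in knockout libraries and 11 to 42 reads in control libraries, and control 1 was once more the highest control. The means of H2-DMa were 4.92 ± 0.612 CPM in knockout and 4.24 ± 0.736 CPM in control libraries (SD, n = 4 each), with a log2 fold change of 0.21 (SE 0.19, 95% interval -0.19 to 0.62, edgeR adjusted p = 0.528). The means of H2-DMb1 were 1.04 ± 0.456 CPM in knockout and 0.687 ± 0.432 CPM in control libraries, with a log2 fold change of 0.59 (SE 0.47, interval -0.42 to 1.60, edgeR adjusted p = 0.482). Neither difference passed the threshold. Without control 1 the estimate of H2-DMb1 was 1.11 (edgeR adjusted p = 0.272), and without the 3 libraries with lens transcripts it was -0.19. H2-DMb1 and H2-DMb2 are near copies, and reads could be split between them: H2-DMb2 held 0 to 4 counts per library. H2-DMa spans 34119693 to 34139101 and H2-DMb1 spans 34153191 to 34160229 on chromosome 17. The length of H2-DMa implied by the deposited FPKM, 8325 bases, exceeds the 3448 bases of its exons in GENCODE. Some of the reads counted for H2-DMa may therefore lie outside those exons.

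Ciita, the member on which the transcription of the others depends, was close to the limit of detection. It held 7, 4, 16 and 5 reads in knockout libraries, or 0.198, 0.116, 0.448 and 0.143 CPM, and 10, 1, 2 and 12 reads in control libraries, or 0.314, 0.0314, 0.0616 and 0.355 CPM. The groups overlapped in part, with the highest level in knockout 3 and the lowest levels in controls 2 and 3. The means were 0.226 ± 0.152 CPM in knockout libraries and 0.190 ± 0.167 CPM in control libraries (SD, n = 4 each; exact two-sided permutation test over 70 arrangements, p = 0.8, where the smallest possible p is 0.0286). Ciita was too low to enter the test across genes. With no filter on low counts its log2 fold change was 0.24 with an SE of 0.83 and a 95% interval of -1.47 to 1.96 (edgeR adjusted p = 0.907), so differences of up to about that size in either direction were not detectable at this depth. In the fit without the 3 libraries with lens transcripts it was -1.11 (edgeR adjusted p = 0.772). The gene lies on chromosome 16 from 10480014 to 10531064.

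Levels per gene length were taken from the deposited FPKM values. In that unit the order in knockout libraries was Cd74 (4.25 ± 1.04), H2-Ab1 (3.04 ± 0.856), H2-Aa (2.82 ± 0.413), H2-Eb1 (1.67 ± 0.250), H2-DMb1 (0.807 ± 0.338), H2-DMa (0.596 ± 0.0848) and Ciita (0.0231 ± 0.0150). The order was the same in control libraries, at 4.71 ± 2.44 FPKM for Cd74, 3.30 ± 1.78 for H2-Ab1, 2.88 ± 1.45 for H2-Aa, 1.74 ± 1.10 for H2-Eb1, 0.533 ± 0.341 for H2-DMb1, 0.505 ± 0.0838 for H2-DMa and 0.0194 ± 0.0171 for Ciita. In both groups the ranges of mean ± SD overlapped between Cd74 and H2-Ab1, between H2-Ab1 and H2-Aa, and between H2-DMb1 and H2-DMa, whereas that of Ciita lay below those of all other members. The range of H2-Eb1 overlapped with those of its neighbours H2-Aa and H2-DMb1 in control libraries but not in knockout libraries. The place of H2-DMa depended on the length that the authors used, 8325 bases as implied by counts and FPKM, while the exons of the gene in the GENCODE annotation cover 3448 bases and its first listed transcript 1658 bases. If all of its counted reads came from that transcript, its level would be 2.99 ± 0.426 FPKM in knockout libraries and 2.54 ± 0.421 FPKM in control libraries, close to H2-Aa. The counts do not show this, as reads counted over the longer length may lie outside the transcript.

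Over the list as a whole, 6 of the 7 members could be tested and 0 passed the threshold in either direction by edgeR, by DESeq2 or by limma-voom, and 0 had an unadjusted p under 0.05 in edgeR, beside 21.3% of all tested genes (3596 genes). Across all 16861 tested genes 2.55% passed (430 genes), with 1.2% higher in the knockout (203) and 1.35% lower (227). That split turned to 207 higher and 131 lower with library size only as the scaling, and to 150 higher and 78 lower on log2(FPKM + 1). The groups overlapped in all 7 members, whereas they did not overlap in 11% of all tested genes. The median log2 fold change of the 6 tested members was -0.06, and 2 of the 6 were positive, beside a median of -0.0011 over all tested genes. Against the share of 2.55%, 0 calls among 6 genes lies near the background.

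The intervals, more than the p-values, show what the design could see. H2-K1, a classical class I heavy chain, had 86.6 ± 15.5 CPM in knockout libraries and 37.6 ± 4.64 CPM in control libraries (SD, n = 4 each; log2 fold change 1.21, edgeR adjusted p = 0.000901). C1qa, a complement subunit made by microglia and macrophages, had 27.9 ± 3.59 CPM in knockout libraries and 12.2 ± 3.12 CPM in control libraries (log2 fold change 1.20, edgeR adjusted p = 0.00349). The 95% intervals of H2-Aa, H2-Ab1, H2-Eb1, Cd74 and H2-DMa all ended below both of these estimates. The interval of H2-DMb1, which reached 1.60, did not.

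**Figure D3:**
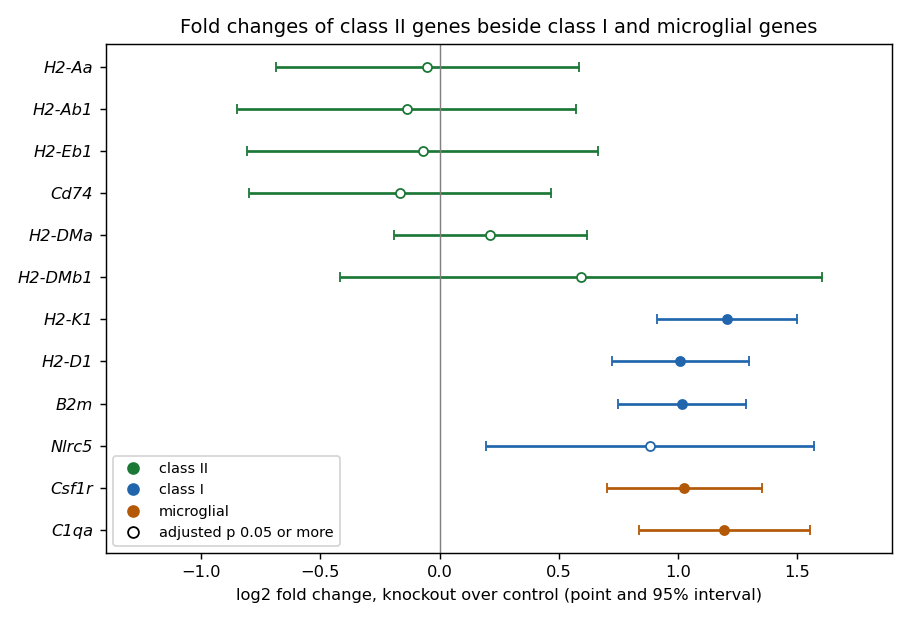
Log2 fold change, knockout over control, with its 95% interval for the tested class II members beside class I and microglial genes, where filled points have an edgeR adjusted p under 0.05. The intervals of the class II members cover 0, and those of H2-K1, B2m, H2-D1, C1qa and Csf1r lie above it.

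Other genes of the class II pathway were counted in the same way. Of 10 listed genes with a row, 6 were tested and 0 passed the threshold, with a median log2 fold change of 0.31. Cathepsin S (Ctss), which trims the invariant chain, came closest, with 45.7, 39.8, 51.7 and 50.9 CPM in knockout libraries and 38.6, 34.5, 24.0 and 23.2 CPM in control libraries. Every knockout library was above every control library, yet the log2 fold change of 0.65 had an edgeR adjusted p of 0.0509. Legumain (Lgmn), another endosomal protease, was at 0.36 with the groups apart (edgeR adjusted p = 0.0679). Cathepsin L (Ctsl) was at 0.31 and the thiol reductase Ifi30 at 0.32, with edgeR adjusted p-values of 0.139 and 0.398. The ubiquitin ligases Marchf1 and Marchf8, which mark class II molecules for removal from the cell surface, were at -0.22 and -0.20 with the groups apart (edgeR adjusted p = 0.165 and 0.162). H2-Oa and H2-Ob, whose products form an inhibitor of H2-DM, held 0 to 10 and 1 to 15 counts per library and were not tested. H2-Eb2 held 0 to 5 counts.

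The promoter factors were expressed well above Ciita and did not pass the test. All 7 were tested, 0 passed, and their median log2 fold change was -0.02. Rfx5, the DNA-binding subunit of RFX, had 38.6 ± 1.60 CPM in knockout libraries and 46.5 ± 6.70 CPM in control libraries (SD, n = 4 each). Its groups did not overlap, with a log2 fold change of -0.27 (edgeR adjusted p = 0.162). The partners Rfxap and Rfxank were at 0.23 and 0.12, the NF-Y subunits Nfya, Nfyb and Nfyc at 0.06, -0.15 and -0.02, and Creb1 at -0.20, with edgeR adjusted p-values of 0.261 to 0.919.

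Interferon gamma is the classical inducer of Ciita, and its pathway was counted next. Of 12 genes 11 were tested, 2 were higher in the knockout and 0 lower, with a median log2 fold change of 0.19. Gbp2, a GTPase induced by interferon, rose to 24.9 ± 7.89 CPM in knockout libraries, against 8.79 ± 0.870 CPM in control libraries (SD, n = 4 each; log2 fold change 1.50, edgeR adjusted p = 0.002). Ifng itself held 0 to 4 counts in knockout libraries and 0 in every control library, where a count of 0 allows 3 reads. Irf1, which acts on the Ciita promoter, was at 0.67 with the groups apart (edgeR adjusted p = 0.0671). The chemokine gene Cxcl9 was at -0.32 (edgeR adjusted p = 0.72), the lowest of the 11 tested genes, of which 8 were positive. Another chemokine gene, Cxcl10, had 2.26, 0.406, 2.35 and 1.89 CPM in knockout libraries. In control libraries Cxcl10 had 0.157, 0.628, 0.339 and 0.444 CPM, and it was not among the genes called.

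Genes of the class I pathway, which shows peptides of the cell's own proteins to CD8 T cells, were higher in the knockout in part. Of 13 genes all were tested, 6 rose and 0 fell, with a median log2 fold change of 0.88. H2-D1, a heavy chain, had 121 ± 22.1 CPM in knockout libraries and 60.2 ± 8.03 CPM in control libraries (SD, n = 4 each; log2 fold change 1.01, edgeR adjusted p = 0.00258). B2m, the light chain of class I, had 104 ± 19.7 CPM in knockout libraries and 51.5 ± 2.13 CPM in control libraries (log2 fold change 1.02, edgeR adjusted p = 0.00157). These and H2-K1 kept their calls with each library left out. The peptide transporter subunit Tap2 was at 0.70 (edgeR adjusted p = 0.0217) and lost its call without knockout 1, 3 or 4 or control 1 or 2. Nlrc5, the class I counterpart of Ciita, had 6.31 ± 3.14 CPM in knockout libraries and 3.42 ± 1.09 CPM in control libraries and did not pass (log2 fold change 0.88, edgeR adjusted p = 0.142). Costimulatory genes, which antigen-presenting cells need beside class II, gave 0 calls among 3 tested: Icosl was at 0.78 (edgeR adjusted p = 0.211), Cd83 at 0.20 and Cd86 at 0.34, while Cd80 held 0 to 6 counts and Cd40 2 to 6 counts per library.

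The level of class II transcripts relative to class I and to microglial transcripts was compared within each library, as log2 of the ratio of counts. The class I and microglial partners were taken with their own fold changes known, so these 6 ratios are not independent evidence of a difference between pathways. Cd74 relative to B2m was -4.03, -4.26, -4.14 and -4.12 in knockout libraries and -2.20, -3.26, -3.17 and -3.60 in control libraries. Every knockout library was below every control library. The mean was -4.14 ± 0.0949 in knockout and -3.06 ± 0.597 in control libraries (SD, n = 4 each), a difference of -1.08 (exact two-sided permutation test, p = 0.0286, the smallest that 4 against 4 allows; adjusted over the 6 ratios, 0.0571). H2-Aa relative to H2-K1 differed by -1.14 and H2-Ab1 relative to H2-D1 by -1.04, with overlapping groups and exact permutation p-values of 0.0571 and 0.0857 (adjusted 0.0857 and 0.103). Against microglial genes, Cd74 relative to C1qa was -2.04, -2.52, -2.31 and -2.12 in knockout libraries and -0.51, -1.11, -0.99 and -1.16 in control libraries. The groups did not overlap here either, and the mean of -2.25 ± 0.217 in knockout libraries stood against -0.95 ± 0.297 in control libraries (difference -1.30, exact permutation p = 0.0286, adjusted 0.0571). H2-Aa relative to Csf1r, the receptor that maintains microglia, was -2.96 ± 0.317 in knockout and -1.96 ± 0.518 in control libraries (difference -0.99, exact permutation p = 0.0286, adjusted 0.0571). Ciita relative to Nlrc5 was -4.79 ± 0.869 in knockout and -4.51 ± 1.42 in control libraries (difference -0.28, exact permutation p = 0.83). None of the 6 passed the threshold after adjustment with all libraries in place. Without control 1 the difference of Cd74 to B2m was -0.80 and that of Cd74 to C1qa -1.16.

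**Figure D4:**
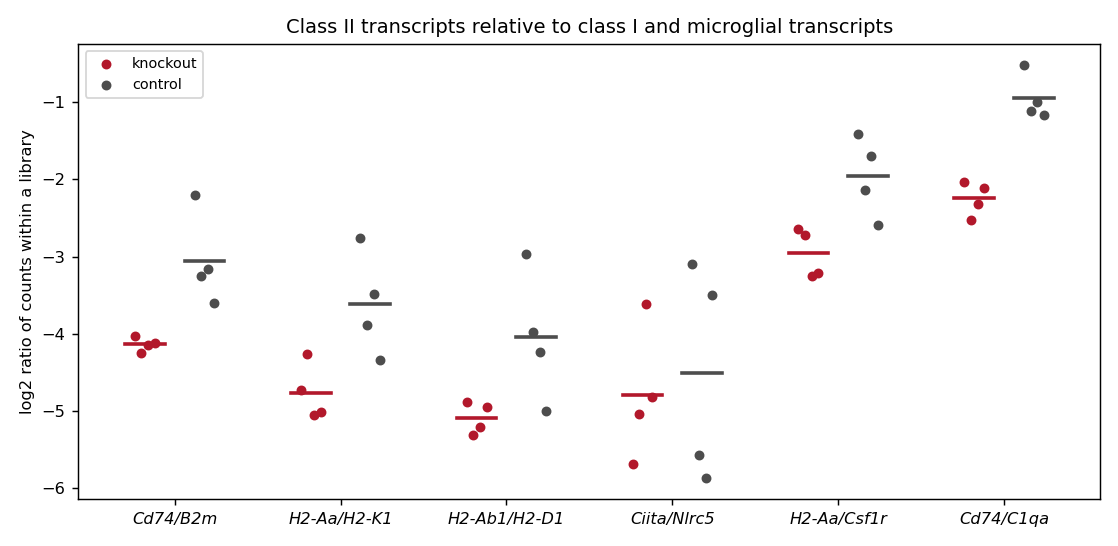
Log2 ratio of counts within a library for 6 pairs of a class II gene over a class I or microglial gene, with knockout left of control in each pair, points for libraries and bars for the mean (n = 4). The groups were apart for Cd74/B2m, H2-Aa/Csf1r and Cd74/C1qa and overlapped for the other pairs.

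Marker genes of the cells that can carry class II were set beside these values. In a bulk sample, fewer cells of a type and less RNA per cell cannot be told apart. Of 16 genes shared by microglia and macrophages 7 rose and 0 fell in the knockout, with a median log2 fold change of 0.83 and summed levels of 184 to 242 CPM in knockout libraries and 94.8 to 162 CPM in control libraries. C1qa, Csf1r, Laptm5 and C1qb had log2 fold changes of 1.20, 1.03, 1.08 and 0.94 (edgeR adjusted p = 0.00349, 0.00478, 0.00592 and 0.00808). Of 8 genes of homeostatic microglia 2 rose and 0 fell, with 7 of the 8 positive and a median log2 fold change of 0.46. Olfml3 was at 1.13 (edgeR adjusted p = 0.00446) and the purinergic receptor gene P2ry12 at 0.03 (edgeR adjusted p = 0.954). Of 9 dendritic cell genes 4 were tested and 0 passed, with summed levels of 89.0 to 95.5 CPM in knockout and 54.8 to 90.5 CPM in control libraries, most of it from Fscn1. Among their defining markers, Zbtb46 was detected at 6.71 ± 0.899 CPM in knockout and 5.64 ± 0.432 CPM in control libraries with the groups apart (SD, n = 4 each; log2 fold change 0.25, edgeR adjusted p = 0.371). Flt3 was detected at 1.76 ± 0.393 CPM in knockout and 2.34 ± 1.29 CPM in control libraries (log2 fold change -0.41, edgeR adjusted p = 0.527). Of the others, Xcr1 held 0 to 3 counts, Cd209a 0 in every knockout library and 0 to 4 in control libraries, Ccr7 0 to 5 and Itgax 5 to 22. Of 10 genes of monocytes and border macrophages 7 were tested and 0 passed, with sums of 16.9 to 20.6 CPM in knockout and 17.4 to 18.6 CPM in control libraries. B cell genes, 6 in all, were too low to test and summed to 0.504 to 0.753 CPM in knockout and 0.326 to 1.00 CPM in control libraries. The T cell genes summed to 1.22 to 2.18 CPM in knockout and 1.01 to 1.69 CPM in control libraries, and the 1 of 6 that was tested did not pass. Haemoglobin genes, a sign of blood, went the other way: 4 of 4 tested fell, with sums of 1.68 to 4.03 CPM in knockout and 10.1 to 14.5 CPM in control libraries. The part of any of these cells in the class II values was not tested.

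Control 1 stood apart in the class II genes, and its other markers were read out. The 7 members summed to 19.0 to 24.4 CPM in knockout libraries, to 35.0 CPM in control 1 and to 15.2 to 19.3 CPM in the other controls. Control 1 exceeded the mean of the other controls 2.28-fold in H2-Aa, 2.35-fold in H2-Ab1, 2.77-fold in H2-Eb1, 2.34-fold in Cd74 and 2.76-fold in H2-DMb1. It was the highest control in 14 of the 16 microglia and macrophage genes, which summed to 162 CPM in it and 94.8 to 124 CPM in the other controls. That sum was still below the lowest knockout library, at 184 CPM, whereas its class II sum was above the highest, at 24.4 CPM. It was the highest control in 2 of 8 homeostatic genes, 4 of 9 dendritic cell genes (2 of which were at 0 in it), 2 of 10 monocyte and border macrophage genes, 2 of 6 B cell genes, 1 of 6 T cell genes and 1 of 13 class I genes. It was the highest control in 4 of 8 genes of the retinal pigment epithelium, which summed to 401 to 656 CPM in knockout libraries, 547 CPM in control 1 and 394 to 544 CPM in the other controls. The pigment cell gene Tyrp1 was at 6.22, 7.30, 12.5 and 16.0 CPM in knockout libraries and at 29.0, 11.3, 8.53 and 7.84 CPM in control libraries. Mlana, another pigment cell gene, was at 1.30, 1.33, 2.27 and 1.77 CPM in knockout libraries and at 6.84, 3.11, 1.73 and 0.474 CPM in control libraries. In Tyrp1 and Mlana, as in the class II chains, control 1 was the highest library. In Rpe65, Best1, Rlbp1, Ttr, Lrat and Rdh5, the other genes of that list, it was not, and a knockout library was higher. Rpe65 was at 9.24, 27.6, 23.1 and 25.1 CPM in knockout libraries and at 13.7 CPM in control 1. Ttr was at 52.2, 115, 116 and 108 CPM in knockout libraries and at 60.2 CPM in control 1. The haemoglobin sum of control 1, 14.4 CPM, lay within the 10.1 to 14.5 CPM of the other controls. The part of these markers in its class II level was not tested.

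The members varied together in part across the 8 libraries. Among H2-Aa, H2-Ab1, H2-Eb1 and Cd74 the 6 pairwise correlations of log2 CPM ranged from 0.66 to 0.94 (Pearson's r) and from 0.43 to 0.81 (Spearman's rho). Of all 21 pairs of members 2 passed after adjustment. H2-Ab1 with Cd74 had r = 0.94 (exact permutation p = 0.00139, adjusted over 21 pairs 0.0292) and rho = 0.74 (exact permutation p = 0.0458, adjusted 0.291). Without controls 1 and 4, the libraries farthest from the median of H2-Ab1, r was 0.82. H2-Aa with H2-Eb1 had r = 0.92 (exact permutation p = 0.00429, adjusted 0.0451) and rho = 0.81 (exact permutation p = 0.0218, adjusted 0.291), and without the same libraries r was 0.49, so that relation rested on them. By rank none of the 21 pairs passed. Knockout 2 shows the division: among knockout libraries it had the lowest H2-Ab1 and Cd74, at 2.35 and 3.94 CPM, and the highest H2-Eb1, at 3.42 CPM. H2-DMa had r = -0.26 with H2-Aa, -0.45 with H2-Eb1 and -0.41 with Cd74, and none of the 15 pairs that include H2-DMa, H2-DMb1 or Ciita passed. The libraries of a pair of genes share depth and cell content, and control 1 lies at the end of most of these relations.

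The genes most like the class II profile were sought as a description. The profile was the mean of the standardised log2 CPM of H2-Aa, H2-Ab1, H2-Eb1 and Cd74, and 13210 genes with a mean of at least 1 CPM were ranked by Pearson's r with it over the 8 libraries. The closest named genes outside the members were Lyz2 (r = 0.95), Cyb5rl (0.95), Zfp418 (0.94), Lncppara (0.92), Fbn1 (0.90) and Cd53 (0.88). Lyz2, a lysozyme gene of myeloid cells, had 23.1, 15.6, 23.5 and 23.2 CPM in knockout libraries and 38.3, 16.7, 15.6 and 11.4 CPM in control libraries. As in the class II chains, control 1 was the highest library and control 4 the lowest, and the means of 21.4 ± 3.84 CPM in knockout and 20.5 ± 12.1 CPM in control libraries (SD, n = 4 each) did not pass the test (log2 fold change 0.06, edgeR adjusted p = 0.927). Without control 1 the r of Lyz2 was 0.94, that of Zfp418 0.88, that of Cyb5rl 0.87 and that of Cd53, a tetraspanin of leukocytes, 0.83. It was 0.62 for Fbn1 and 0.60 for Lncppara. Cd53 was also the 1 gene of the 16 microglia and macrophage genes with a negative log2 fold change, at -0.18 (edgeR adjusted p = 0.786).

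**Figure D5:**
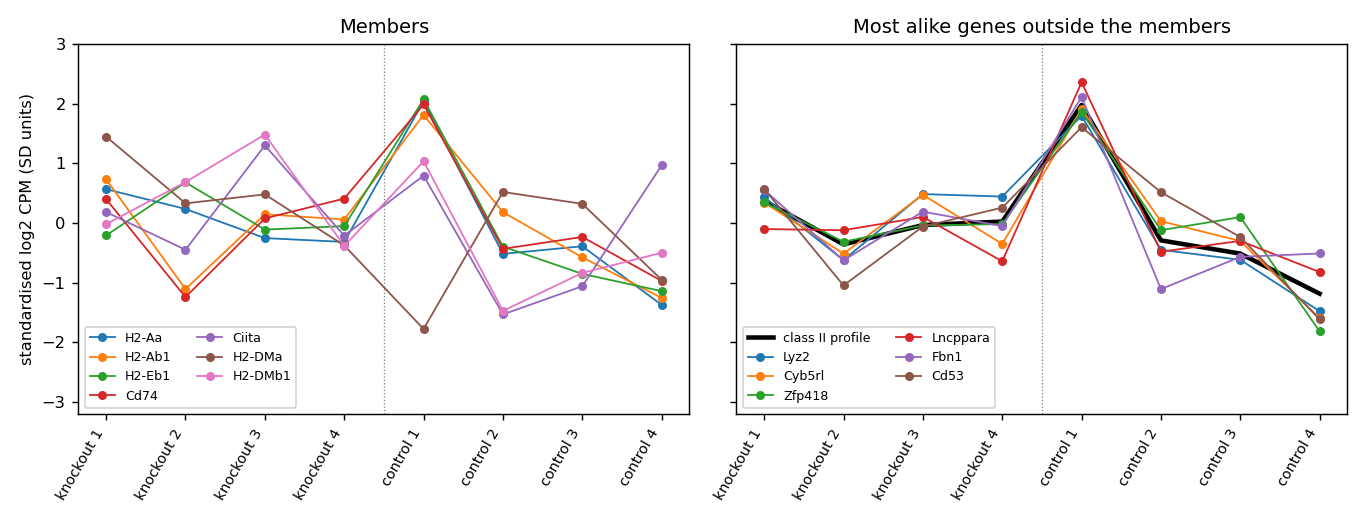
Standardised log2 CPM in SD units across the 8 libraries, knockout 1 to 4 left and control 1 to 4 right of the dotted line, for the 7 members in the first panel and for the class II profile (black) with the 6 genes most like it in the other panel. Control 1 is the peak of H2-Aa, H2-Ab1, H2-Eb1, Cd74 and of Lyz2, and H2-DMa is lowest there.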

How the data were processed

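The 8 retina libraries were made from TRIzol-extracted, polyadenylated RNA with a VAHTS Universal kit, per the labels' protocols. Per the submitters' processing notes, the authors used fastp, HISAT2, HTSeq and the build mm10. The sources used here name neither versions nor annotation nor a strand setting, so overlapping and antisense genes may share reads. The deposited count table holds whole read counts per gene, not normalized. The deposited FPKM table holds counts scaled to library total and to 1 length per gene, by the authors. Columns were assigned by sample title, and libraries bear the number of their title.

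The test across genes was edgeR's quasi-likelihood test (edgeR 4.0.16, R 4.3.3) with TMM scaling, two-sided and with no covariate. It covered the 16861 genes that passed filterByExpr with a minimum count of 10 and a minimum total of 15. All of their p-values entered the Benjamini-Hochberg adjustment, and the threshold was 0.05. The SE was derived from the fold change and its F statistic. The procedure was tested on simulated data with the same dispersion for every gene, so that test does not show its power for the members. Within-library ratios (counts plus 0.5) and Ciita were compared by exact permutation tests, and correlations by exact permutation over all pairings with log2 CPM at a prior count of 2. Intervals do not cover PCR duplicates.

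The members and gene lists were chosen with earlier results of these data known. All 7 members are named, and of each other list at most 4 called genes, ranked by p, or the first 2 by p where none was called. All genes of the class II pathway and promoter factor lists are named as well. Some genes that this rule takes are not reported here. Ifng, Cxcl9, Irf1, P2ry12, the untested costimulatory and dendritic cell markers and other genes outside this rule were chosen after their values were seen. Marker lists of the pigment epithelium gave 0 calls among 8 tested genes (median log2 fold change 0.58), the lens list 0 among 16 (-1.72) and the rod list 0 among 7 (0.15). Promoters came from RefSeq, GRCm38.p6. Alternatives were RLE, upper quartile and library size scaling, no filter and a stricter filter (1 CPM in 4 libraries), DESeq2 1.42.0, limma-voom and limma-trend (limma 3.58.1) on log2(FPKM + 1) and log2(FPKM + 0.1), leaving out 1 library at a time, a block for the title number, and leaving out libraries with a lens sum over 100 CPM.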

Additional observations from a re-analysis of the deposited data

Results flagged for a closer look

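Within each group of 4 libraries, a value was marked when its gap to the nearest library, divided by the range of the group, exceeded Dixon's 95% critical value for 4 samples. Of 26 groups checked 3 were marked, where chance marks about 1 in 20. H2-Eb1 in knockout 2, at 3.42 CPM, stood above the other knockout libraries (gap over range 0.847). H2-Eb1 in control 1, at 5.61 CPM, stood above the other controls (0.857), and so did Cd74 in control 1, at 11.7 CPM (0.835).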

How the results depend on the processing

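Under all 19 alternatives 0 members passed the threshold. The small fold changes changed sign in several. H2-Aa was 0.058 with limma-voom, 0.035 on log2(FPKM + 1) and 0.067 on log2(FPKM + 0.1), and H2-Eb1 was 0.088, 0.032 and 0.091 under the same settings. Without the 3 libraries with lens transcripts (knockout 3, controls 2 and 3), H2-DMb1 was -0.19 and Ciita -1.11. With 1 library left out, log2 fold changes ranged from -0.22 to 0.35 for H2-Aa, -0.33 to 0.28 for H2-Ab1, -0.25 to 0.46 for H2-Eb1, -0.33 to 0.25 for Cd74, -0.10 to 0.45 for Ciita (5 fits), 0.12 to 0.30 for H2-DMa and 0.28 to 1.11 for H2-DMb1. The ratios ranged from -1.26 to -0.80 for Cd74/B2m, -1.38 to -0.86 for H2-Aa/H2-K1, -1.36 to -0.69 for H2-Ab1/H2-D1, -0.73 to 0.19 for Ciita/Nlrc5, -1.21 to -0.81 for H2-Aa/Csf1r and -1.37 to -1.16 for Cd74/C1qa. Without control 4, all of these but Ciita/Nlrc5 had an exact permutation p of 0.0343 after adjustment. The calls among all genes numbered 690 with no filter, 1320 by DESeq2, 228 on log2(FPKM + 1), 15 without the lens libraries (3 knockout against 2 control) and 108 (without knockout 3) to 3209 (without control 4) with 1 library left out. The causes were not tested. H2-DMb1 did not enter the stricter filter, and Ciita, beside the fit with no filter, gave a value in 7 alternatives.

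The deviations of same-numbered libraries correlated at 0.21, -0.04, 0.12 and 0.01. For controls 1 and 3 the knockout library that correlated best bore the same number, and for controls 2 and 4 it did not. With so few libraries these correlations cannot decide whether the numbers mark pairs or a shared batch. With the number as a block, H2-Aa was 0.041, H2-Eb1 0.077, and the calls among all genes 228. Under sign flips within pairs the adjusted p of the ratios was 0.188 to 0.875, in a test of 4 pairs that cannot pass the threshold.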
